A study of Vitis vinifera with 54 samples.

Results

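Chardonnay berry flesh held 117 genes whose transcripts, on average over zones, changed little from the enlargement period to the color transition period and were then higher at maturity, of 25133 genes in the expression table (0.466%). A gene was taken when its mean log2 level was at least 1 higher at maturity than at color transition in 3 or more of 5 ecological zones, and when its mean change from enlargement to color transition over the same 5 zones lay between -1 and 1. Levels are on the log2(rescaled TPM + 1) scale, where TPM is the transcript abundance scaled for gene length and library total, and each library was divided by a median-of-ratios factor. The 7 phenylalanine ammonia-lyase ids and 1 further id that the rule set aside were not counted, and 3 of those 8 met it too.

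Flesh without skin or seeds was sampled from Chardonnay (Vitis vinifera, a white wine grape) in 6 ecological zones of Ningxia named HJZ, ZHYS, CC, XG, XLS and HSB. The periods were enlargement (E, at 40 days counted from early flowering), color transition (V, 80 days, labelled veraison) and maturity (M, 120 days). Each of the 18 groups had 3 biological replicates of 15 fruits, so the table held 54 libraries, all of 1 cultivar with no treatment. The genes were chosen by their E, V and M values in the 5 zones HJZ, ZHYS, CC, XG and XLS, which are therefore given as a description with no test; zone HSB, with 9 libraries, took no part in the choice and carries the tests.

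A grape berry grows in an early phase in which the flesh stores organic acids, pauses, and then ripens from veraison, when it softens, imports sucrose and stores glucose and fructose. Sucrose reaches the flesh through the phloem and can be split outside the cell by cell wall invertase or moved across membranes by transporters such as those of the SWEET and hexose transporter families. Ripening also brings changes in carotenoids, aroma precursors and defence proteins. Many ripening genes switch on at veraison itself.

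The 3 V-XLS libraries did not resemble each other: the mean log2 level over the 117 genes was 3.15 in replicate 1, 1.52 in replicate 2 and 3.31 in replicate 3, while the M-XLS libraries lay between 3.14 and 3.20. On these genes V-XLS replicate 2 lay with the color transition libraries of the other zones, and replicates 1 and 3 lay at the level of maturity. With replicate 2 as the only V-XLS library, 87 of the 117 genes were at least 1 higher at maturity in XLS (median 1.61), against 3 genes (median 0.06) with replicate 1 and 4 genes (median -0.23) with replicate 3. The V-XLS libraries took part in choosing the genes, and a low V value helped a gene to meet the rule. These counts are therefore a description, and the same counts over all genes were not made. Among enlargement libraries, E-HJZ replicate 2 (1.84) and E-XLS replicate 2 (1.88) were higher than the others of their groups, which lay from 1.46 to 1.57. In HSB the V libraries lay near E over all genes, since limma called 3.55% of the 24648 genes tested between E and V but 29.8% between E and M. What set these libraries apart was not tested. The rule without V-XLS replicate 2 returned 100 genes, all of them among the 117, and with V-XLS replicate 2 alone it returned 222 genes, 111 of them among the 117.

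**Figure D1:**
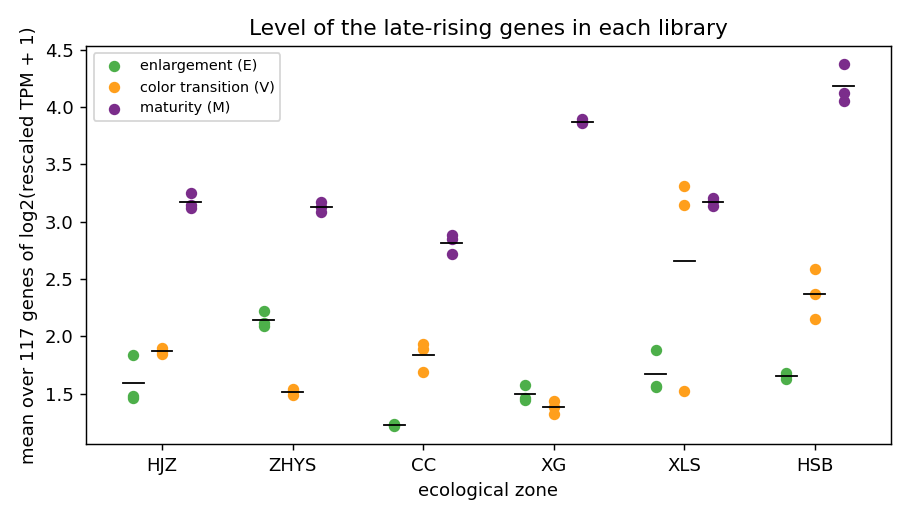
Mean of log2(rescaled TPM + 1) over the 117 genes (vertical axis) in each of the 54 libraries, by ecological zone and period; horizontal bars are group means of 3 libraries. In 5 zones every maturity library lies above every color transition library, and in XLS the V replicates 1 and 3 (3.15 and 3.31) reach the M libraries (3.14 to 3.20).

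The M minus V change was at least 1 in 3 zones for 90 genes, in 4 zones for 23 and in all 5 for 4. The most frequent combination was HJZ, ZHYS and XG (42 genes), followed by ZHYS, CC and XG (27) and by HJZ, ZHYS, CC and XG (14). XG contributed most: 111 of the 117 genes reached a change of 1 there (median 2.41), and the change was the largest of the 5 zones for 84. ZHYS followed with 100 genes (median 1.51), HJZ with 84 (1.16), CC with 64 (1.04) and XLS with 23 (0.52). Over all 24648 genes the share with a change of at least 1 was 6.39% in XG, 4.07% in ZHYS, 1.02% in HJZ, 1.22% in CC and 0.463% in XLS, and since these changes chose the genes nothing is read from that contrast.

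Every M library lay above every V library for 114 genes in XG, 109 in HJZ, 105 in ZHYS, 87 in CC and 22 in XLS. Over all genes tested the corresponding shares were 29.8%, 21.1%, 23.8%, 20.4% and 13.1%. The same libraries chose the genes, so nothing is read from this contrast either. The low XLS count went with the spread of the V-XLS libraries described above.

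The early step was level on average but not in each zone. The mean V minus E change over the 5 zones had a median of 0.25 and was above 0 for 87 genes and below 0 for 30. Its absolute value was at most 0.5 for 65 genes. Zone by zone, the median was 1.04 in XLS, 0.50 in CC, 0.21 in HJZ, 0.00 in XG and -0.50 in ZHYS. In XLS 60 genes were already at least 1 higher at V than at E, and in ZHYS 37 genes were at least 1 lower. The change stayed within 1 in every one of the 5 zones for 21 genes, so "late only" described the mean over zones and few genes in each zone taken alone. For 97 genes the mean M minus E change was at least 1, and for 20 it was below 1.

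**Figure D2:**
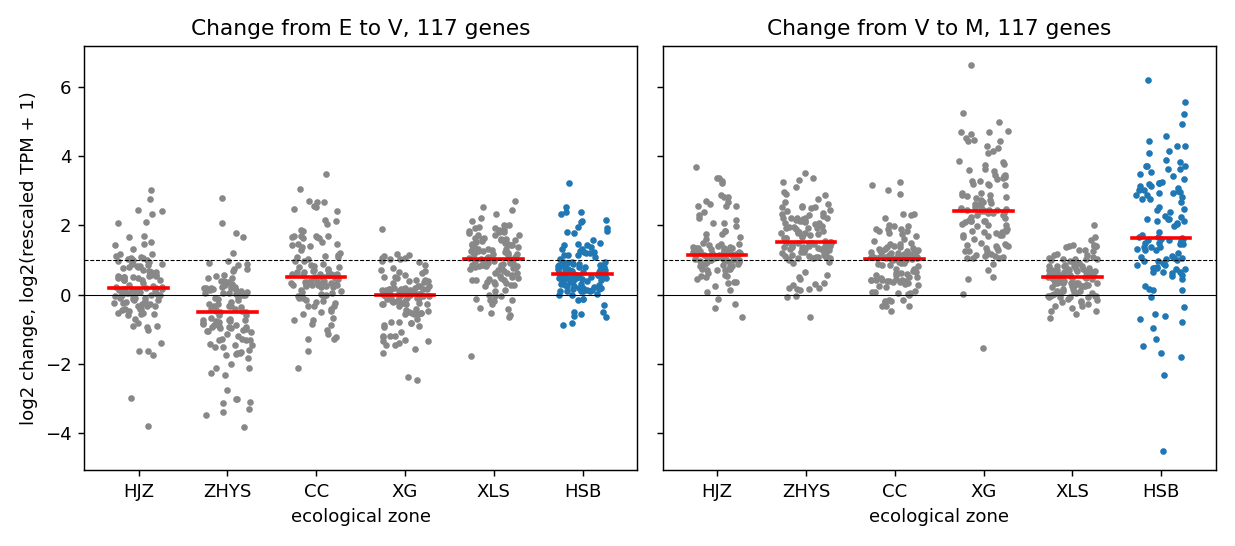
Change of each of the 117 genes (1 point a gene) from E to V (left) and from V to M (right) in log2(rescaled TPM + 1), by ecological zone; red bars are medians, the dashed line marks 1, and HSB (blue) did not choose the genes. The V to M medians run from 0.52 in XLS to 2.41 in XG, with 1.65 in HSB, and the E to V median is below 0 only in ZHYS (-0.50).

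Most of these transcripts were of low abundance before maturity. The median over the genes of the mean rescaled TPM in the 5 zones was 1.74 at E, 2.37 at V and 8.01 at M. At maturity the means ran from 1.32 to 845, with 47 genes at 10 or more, 6 at 100 or more and 42 below 5. A change on the log2(value + 1) scale understates the change of the low genes. In 71 of the 117 genes the value was above 0 in every library.

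The mean log2 level over the 117 genes at maturity was highest in HSB (4.18 ± 0.17, SD, n = 3), followed by XG (3.87 ± 0.02). XLS (3.17 ± 0.03), HJZ (3.17 ± 0.07) and ZHYS (3.13 ± 0.05) did not differ beyond their spread, and CC was lowest (2.82 ± 0.09). At color transition the order was another one, with XG lowest (1.38 ± 0.06), then ZHYS (1.52 ± 0.03), and with CC (1.84 ± 0.13) and HJZ (1.87 ± 0.02) alike within their spread, before HSB (2.37 ± 0.22) and XLS (2.66 ± 0.99). At enlargement it ran from 1.23 ± 0.01 in CC to 2.15 ± 0.07 in ZHYS. XG joined the lowest level at V to the highest of the 5 zones at M. Gene by gene, the M level was highest of the 5 zones in XG for 71 of the 117, and highest of all 6 zones in HSB for 56. The values of the 5 zones chose the genes, so nothing is read from the order of those zones.

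The question was whether genes chosen in 5 zones were also higher at maturity in a zone that had no part in choosing them. A model was fitted to all 24648 genes with limma, and a gene was called when its Benjamini-Hochberg adjusted p was below 0.05 and its change exceeded 1 in absolute value. Of the 117 genes 81 (69.2%) were called higher at M than at V in HSB, whereas 8.48% of all genes tested were, and 6 (5.13%) were called lower, against 12.7% of all genes. The remaining 30 had no call. The median change of the 117 was 1.65 and that of all genes -0.00, and the estimate was above 0 for 104 of the 117. Many of the 24648 genes were hardly expressed, and among the 16020 with a mean rescaled TPM of at least 1 the share called higher was 12.1% and the share called lower 16.8%. Every M-HSB library lay above every V-HSB library for 99 of the 117 genes, against 31.8% of all genes tested.

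In the early step in HSB 28 genes (23.9%) were called higher at V than at E, against 2.99% of all genes, and 0 were called lower, against 0.564%. At an unadjusted p under 0.05 in limma, 64 were higher and 4 lower, against 18% and 17.5% of all genes. The count of 28 was 18 without V-HSB replicate 3 and 51 with a pseudocount of 0.1. With that pseudocount the counts over all 24648 genes moved too, to 1344 called higher and 315 lower, against 736 and 139 in the main fit. The median E to V change was 0.59. Over the whole season 93 genes (79.5%) were called higher at M than at E, against 13.7% of all genes, and 6 were called lower, against 16.1%. Taking both steps, 58 genes were called higher from V to M with no call from E to V (6.31% of all genes), 23 were called higher in both steps (2.15%) and 4 were called higher in the early step with no call in the late one (0.73%). A missing call does not show a level unchanged. Over all genes 3.55% were called between E and V in HSB, against 29.8% between E and M. V-HSB thus lay near E, so the V to M calls in HSB cannot show that a rise came late. Without the 3 V-XLS libraries in the fit the counts were 81, 30 and 93 for V to M, E to V and E to M.

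**Figure D3:**
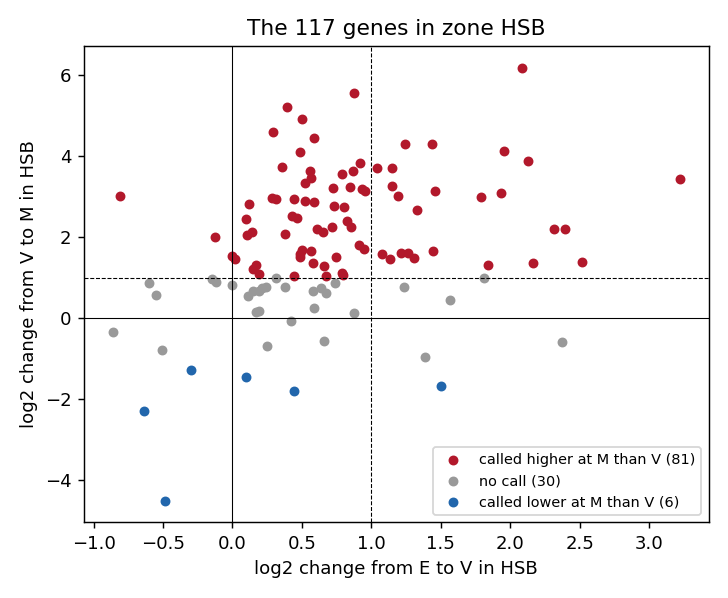
The 117 genes in HSB, by their limma estimates of the log2 change from E to V (horizontal axis) and from V to M (vertical axis), coloured by the call for V to M; dashed lines mark 1. The 81 genes called higher fill the upper part, 58 of them with no call from E to V, and LOC100242355 lies lowest at -4.50.

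The calls in HSB were also counted by the set of zones in which the genes had been chosen. Over all genes tested, 8.48% were called higher at M than at V in HSB and 12.7% lower. Of the 42 genes that reached a change of 1 in HJZ, ZHYS and XG only, 39 were called higher at M than at V in HSB and 0 lower, with a median of 2.95. Of the 27 genes of ZHYS, CC and XG only, 12 were called higher and 2 lower, with a median of 0.98. Of the 27 genes that reached it in at least 4 zones, 20 were called higher and 1 lower (median 1.59). Genes with a mean early change above 0 were called higher in 68 of 87 cases and those below 0 in 13 of 30. The differences between these subsets were not tested, and the subsets were drawn after the values were known.

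LOC100243643, which carries the synonym SWEET15 in RefSeq and belongs to the SWEET family of sugar transporters, was the most abundant of the 117. Its rescaled TPM at color transition was 162 to 176 in HJZ, 72.9 to 95.1 in ZHYS, 86.6 to 96.3 in CC and 134 to 173 in XG. At maturity it was 903 to 1130 in HJZ, 577 to 711 in ZHYS, 666 to 711 in CC and 577 to 746 in XG. The groups did not overlap in any of these 4 zones, and the V level lay below or at the lower end of the E level, which was 166.5 to 372 in the same zones. In XLS the V libraries held 1131, 53.5 and 1166 and the M libraries 1196 to 1286, so here the M minus V change of 1 or more rested on V-XLS replicate 2. In HSB the transcript was 338 to 363 at E, 476 to 559 at V and 808 to 851 at M. Its V to M change there was 0.67 (SE 0.50, adjusted p = 0.257 in limma), below the limit of a call although the libraries did not overlap. The spread in the fit includes the V-XLS libraries, and without them the adjusted p was 0.000546 for the same change.

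CWINV, the cell wall invertase that splits sucrose outside the cell, was at 75.1 to 79.8 in M-XG, 52.7 to 77.5 in M-ZHYS and 29.8 to 31.9 in M-HJZ. At V the same zones held 2.16 to 5.08, 12.7 to 14.1 and 12.4 to 14.1. In CC the V libraries (9.35 to 25.0) overlapped those of maturity (20.8 to 29.2). In XLS they held 24.4, 4.56 and 42.6 against 29.7 to 30.8 at M, so 1 V library lay above every M library. In HSB CWINV went from 1.99 to 3.42 at E through 9.29 to 14.3 at V to 99.1 to 101 at M, with no overlap between periods. Both steps were called: 1.79 from E to V (SE 0.43, adjusted p = 0.00129 in limma) and 2.996 from V to M (SE 0.43, adjusted p = 8.41e-08). None of the 21 hexose and sucrose transporter genes found by symbol or synonym was among the 117, against 0.466% of all genes. That list does not hold the SWEET family. In HSB 1 of the 21 was called higher from V to M and 2 lower, against 8.48% and 12.7% of all genes tested. Several of the 21, such as HT14 and HT18, had a mean of 0.0 at maturity in the 5 zones. Nothing is read from these small counts.

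MLO7 (synonym MLO17) encodes a membrane protein of the MLO family, some members of which are required for powdery mildew infection in plants. Over the 15 libraries of the 5 zones it ran from 0 to 2.50 at E (median 0.370) and from 0.152 to 5.24 at V (median 0.463). At maturity it reached 10.2 to 12 in ZHYS and 8.65 to 13.2 in XG, above all of these. It was 0.992 to 2.93 in M-HJZ and 1.80 to 2.27 in M-CC, within the range of the E and V libraries of the 5 zones. At color transition MLO7 was 0.15 to 0.24 in HJZ and 0.18 to 0.50 in CC, below every M library of the same zone. In XLS it was 2.21, 0.498 and 5.24 at V and 1.69 to 2.63 at M, with overlap. In HSB it stood at 0.596 to 0.857 at V and at 12.7, 31.9 and 18.6 at M, a change of 3.55 (SE 0.32, adjusted p = 2.11e-12 in limma). The 7 MLO genes that could be found by symbol or synonym held only this member. In HSB 4 of the 7 were called higher from V to M and 2 lower, against 8.48% and 12.7% of all genes tested.

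HYD2, named as a carotene hydroxylase of the carotenoid pathway, had no call from V to M in HSB. At maturity it was 20.7 to 28.7 in ZHYS, 13.8 to 24.6 in XG, 11.3 to 14.5 in HJZ and 9.86 to 11.03 in CC, each above the V libraries of the zone, which lay between 1.43 and 6.28. From E to V it had already changed by 2.106 in HJZ, 1.635 in CC and 2.22 in XLS, but by -0.929 in ZHYS and -0.278 in XG. In HSB the M libraries (7.06 to 8.52) overlapped those of V (4.78 to 8.20), and the change was 0.13 (SE 0.22, adjusted p = 0.641 in limma). In XLS the V libraries (15.5 to 19.97) lay above those of M (9.84 to 10.9), V-XLS replicate 2 (15.5) included. Of the 8 carotenoid genes found by symbol or synonym HYD2 was the only one among the 117. In HSB 1 of the 8 was called higher from V to M and 3 lower, against 8.48% and 12.7% of all genes tested. The MLO, sugar transporter and carotenoid lists were put together from symbols and synonyms after the values were seen. Nothing is read from their counts.

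**Figure D4:**
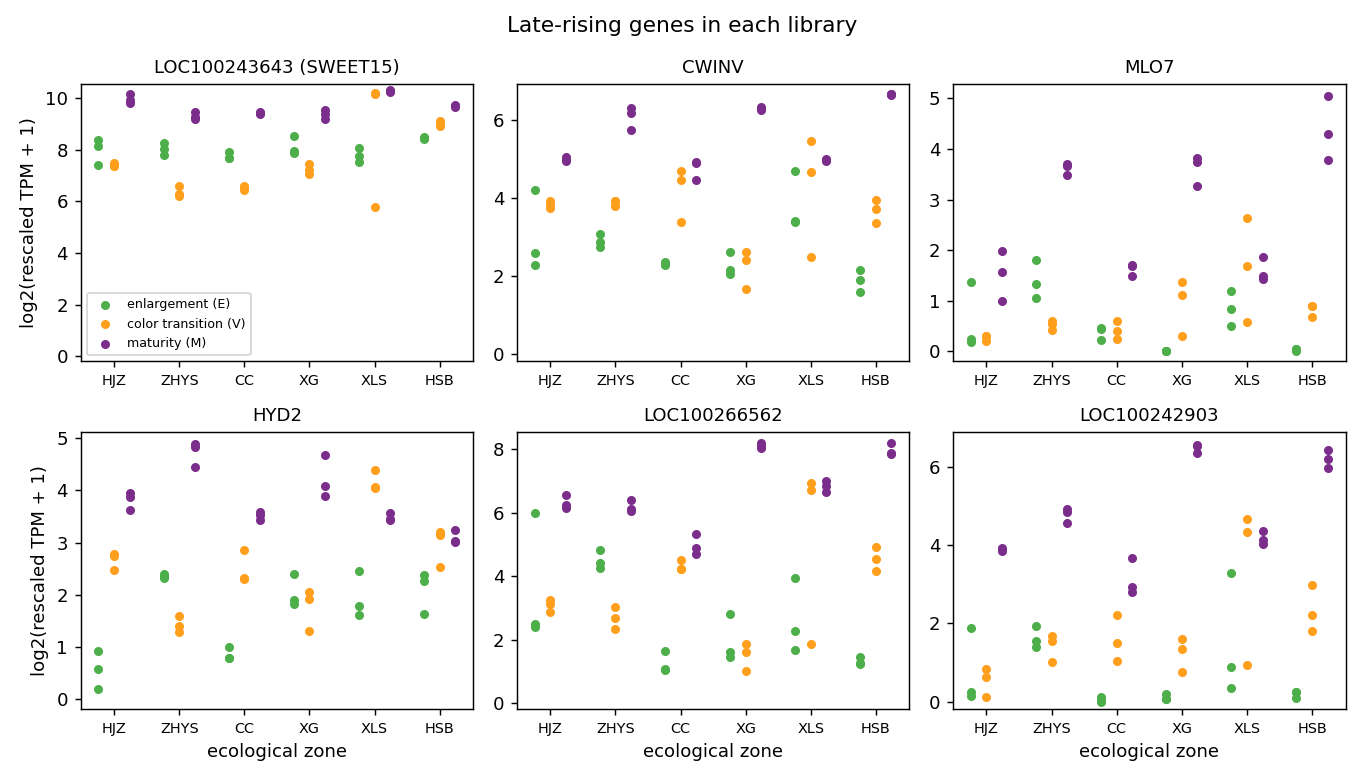
Level of 6 genes in each library as log2(rescaled TPM + 1) (vertical axes, each from 0 with its own top), by zone and period. CWINV, MLO7, LOC100266562 and LOC100242903 are highest at M in XG or HSB, HYD2 overlaps between V and M in HSB, and the lowest V-XLS point is replicate 2 (53.5 for LOC100243643).

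LOC100266562 had the largest mean M minus V change over the 5 zones (3.13). It was at 1.02 to 2.63 in V-XG against 261 to 290 in M-XG, and at 4.07 to 7.06 in V-ZHYS against 65.4 to 83.6 in M-ZHYS. It varied among enlargement libraries, with 62.8 in E-HJZ replicate 2 and 4.63 and 4.23 in the others of that group. In HSB it went from 1.33 to 1.73 at E through 16.8 to 29.4 at V to 229 to 290 at M. Both steps were called there, 3.22 from E to V (SE 0.73, adjusted p = 0.000769 in limma) and 3.42 from V to M (SE 0.73, adjusted p = 8.71e-05), so in HSB its level was higher already at the color transition. Its E to V change was also 3.05 in CC and 2.53 in XLS, where V-XLS replicate 2 held only 2.63. It was -0.54 in HJZ, -1.82 in ZHYS and -0.46 in XG.

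LOC100242903 came next with a mean change of 2.88. It stood at 0.703 to 2.03 in V-XG and 80.7 to 93.7 in M-XG, and at 2.47 to 6.81 in V-HSB and 61.5 to 85.0 in M-HSB. Its V to M change in HSB was 3.87 (SE 0.57, adjusted p = 1.53e-07 in limma). Of the 12 genes with the largest mean change among those at 10 or more at maturity, 11 were called higher from V to M in HSB, LOC100243643 being the exception. LOC100247714 (1.05, adjusted p = 0.0245) and LOC100260301 (1.04, adjusted p = 0.0499) lay just past the limit of a call, and lost it in 4 and in 12 of 16 alternatives. Without the V-XLS libraries in the fit their adjusted p was 1.47e-05 and 0.000121 in limma for the same changes. The other 9 changed by 2.26 to 4.30, among them LOC100263939 (3.19), LOC100258333 (3.14), LOC100244546 (2.26), LOC100253152 (3.09), LOC100240904 (4.30), LOC100244220 (3.71) and LOC100853659 (4.29).

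The 8 most abundant genes at maturity included LOC100243643, LOC100266562 and LOC100244546, described above among the largest rises. LOC100253493 was second to LOC100243643 with a mean of 299 over the 5 zones, and it held 942 to 1010 in M-HSB against 100.4 to 140.1 in V-HSB (3.02, SE 0.28, adjusted p = 3.15e-12 in limma). In CC it was lower at M (203 to 234) than at V (254 to 301). In contrast LOC100255616 changed by 0.17 (adjusted p = 0.535), LOC100263585 by 0.26 (adjusted p = 0.205) and LOC100267971 by -0.35 (adjusted p = 0.640) in HSB. LOC100267971 was also the most uneven of these genes among replicates, with 7.44, 299.6 and 96.9 in the 3 V-ZHYS libraries. ID 100853641, which the RefSeq table does not list, was called higher in both steps in HSB, by 2.17 and 1.36.

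Among the 4 genes whose change reached 1 in all 5 zones, LOC100243643 and LOC100263533 had no call in HSB (LOC100263533: 4.89 to 5.59 at V and 7.23 to 10.7 at M, change 0.67, adjusted p = 0.123 in limma), and LOC100260301 and LOC100253152 were called. LOC100253152 was at 2.28 to 4.68 in V-HSB and 32.1 to 41.4 in M-HSB. These last 2 genes were the only ones of the 117 with a change of at least 1 in all 6 zones. In XLS the change of these genes again rested on V-XLS replicate 2, which held 0.940 of LOC100263533 beside 16.5 and 17.2 in the other V-XLS libraries. Without the V-XLS libraries in the fit the adjusted p of LOC100263533 in HSB was 0.000255 in limma. Its change of 0.67 there stayed below the limit of a call.

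LOC100248930, the other gene with only a synonym in RefSeq (BAP1), was named after its values were seen. It was at 0.973 to 1.53 in V-XG and 14.7 to 24.2 in M-XG, and at 3.21 to 6.03 in V-HSB and 29.9, 60.1 and 34.1 in M-HSB (2.93, SE 0.32, adjusted p = 1.47e-10 in limma). At enlargement it was low in 5 zones, at most 3.75, but 16.6 to 22.8 in E-ZHYS, above the 13.2 to 17.5 of M-ZHYS in all but 1 library. A high E-ZHYS level was also seen for LOC100263939 (13.9 to 17.0, against at most 1.59 in other E libraries).

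LOC104879582 had the largest V to M change in HSB, 6.19 (SE 0.61, adjusted p = 1.76e-11 in limma). It held 1.73, 3.30 and 6.26 in the V-HSB libraries and 227, 400.3 and 359 in those of M, far above the 7.38 to 70.6 seen at maturity elsewhere. LOC100254170, LOC100855074, LOC100855245, LOC100252625 and LOC100242381 shared another profile, and were singled out after their values were seen. All 5 were listed at 0 in the 3 E-HSB libraries. LOC100254170 was at 0.259, 0.841 and 1.68 in V-HSB and at 56.6, 147 and 74.4 in M-HSB, against at most 37.8 in any other library. LOC100252625 was at 0.118, 0.579 and 0.929 in V-HSB and at 17.7, 59.8 and 29.4 in M-HSB, against at most 4.56 elsewhere. The V to M changes of the 5 genes in HSB were 5.55, 4.91, 4.59, 4.44 and 5.22 in the order given, and all were called. In each of the 5 genes M-HSB replicate 2 was the highest library of its group, as was M-HJZ replicate 2.

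Of the 117 genes 6 were called lower at M than at V in HSB, and for 10 every M-HSB library lay below every V-HSB library, against 35.9% of all genes tested. LOC100242355 was at 111 to 130 in E-HSB and 73.2 to 101 in V-HSB and at 2.26 to 3.35 in M-HSB, a change from V to M of -4.50 (SE 0.24, adjusted p = 3.06e-19 in limma). In the other zones it stayed low throughout, at 0.219 to 15.3, and was 0.896 to 1.12 in V-XG and 5.30 to 6.91 in M-XG. Its M libraries in HSB were therefore at a level similar to those of other zones, and its E and V libraries were the ones apart. LOC100258190 was also highest at E and V in HSB, at 16.3 to 18.6 in E-HSB, 10.1 to 12.4 in V-HSB and 1.33 to 1.59 in M-HSB (-2.30, SE 0.20, adjusted p = 3.34e-13), and its M-HSB libraries lay below all M libraries of the other zones (1.97 to 9.39).

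LOC100255639 differed from these, since its V level in HSB lay within the range of the V libraries elsewhere (4.31 to 31.3). It was at 22.02 to 24.9 in V-HSB and 7.69 to 8.26 in M-HSB (-1.47, SE 0.26, adjusted p = 5.71e-06 in limma), while all other M libraries held 17.9 to 39.5. The remaining calls in this direction were LOC100254248 (-1.80), LOC100262403 (-1.68) and ID 100246308 (-1.29). LOC100262403 was the 1 gene called higher from E to V and lower from V to M in HSB, at 2.31 to 5.15, 7.71 to 13.2 and 2.58 to 2.73 in E, V and M.

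**Figure D5:**
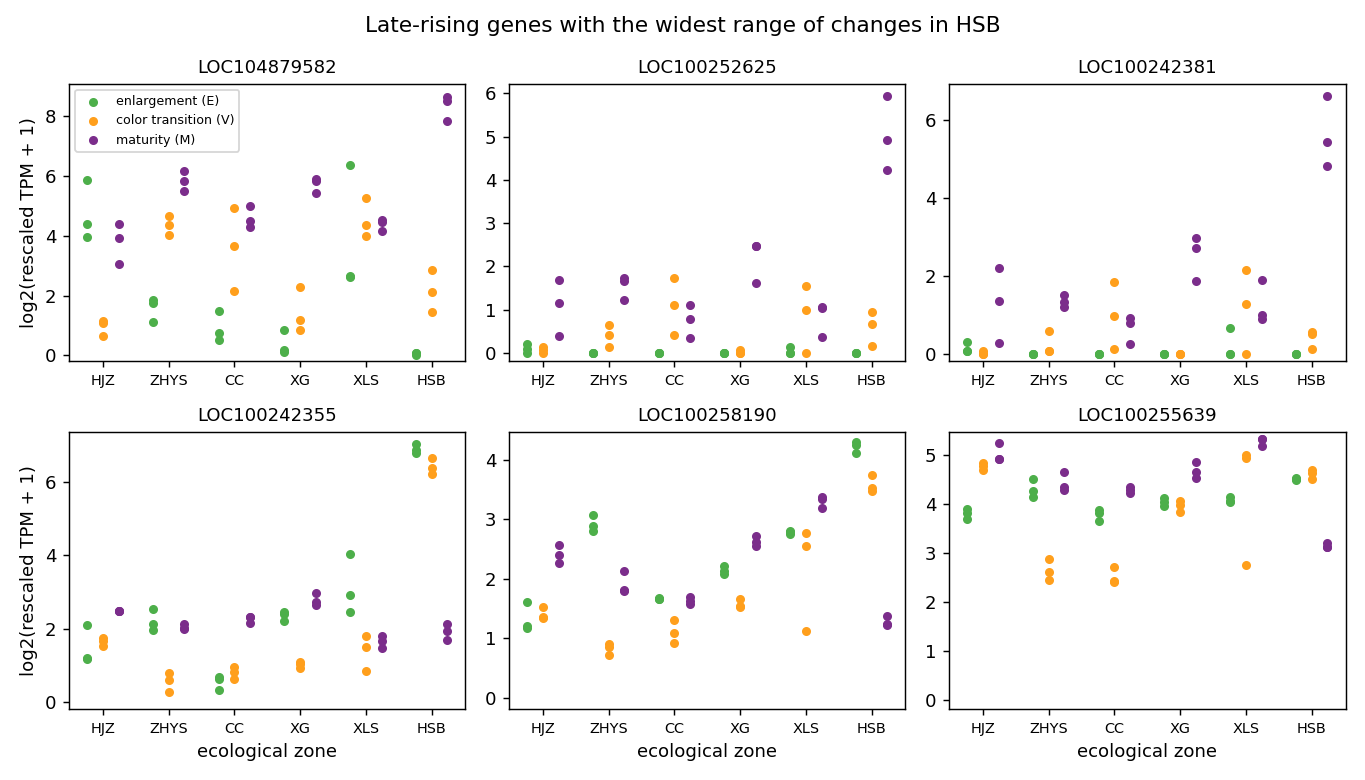
Level of 6 genes in each library as log2(rescaled TPM + 1) (vertical axes, each from 0 with its own top), by zone and period. In the upper panels the M-HSB libraries lie above all others (227 to 400.3 for LOC104879582), and in the lower panels they lie below the V-HSB libraries (2.26 to 3.35 against 73.2 to 101 for LOC100242355).

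Of the 108 genes found in the RefSeq table, 15 had another of the 117 within 5 gene positions, in 8 pairs, 4 of them directly adjacent. No such count was made for other sets of 108 genes, so no clustering is read from it. The adjacent pairs were LOC100266562 with LOC100244220, LOC104881555 with LOC100253584, LOC100855245 with LOC100252625, and LOC109121661 with LOC100265435. LOC100242381 followed LOC100252625 with 1 gene between them, and LOC100240904 and LOC100853659 also had 1 gene between them. In the last of these adjacent pairs the levels were alike: LOC109121661 held 8.44, 125.5 and 10.8 in M-HSB and LOC100265435 held 9.22, 129 and 7.89, both at 0 in the E-HSB libraries. In the first pair they were not, since LOC100266562 held 229 to 290 in M-HSB and LOC100244220 held 31.0 to 40.8. Near-identical copies can share reads, the treatment of such reads is not stated, and how alike these sequences are was not examined, so the values of such pairs are uncertain as separate measurements. For LOC109121661 and LOC100265435 the call in HSB rested on M-HSB replicate 2: without it the changes were 1.001 (adjusted p = 0.134 in limma) and 0.94 (adjusted p = 0.152).

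The third largest M minus V change was 1.00007 for ID 104879958 and 1.003 for LOC100252625 just inside the rule, and 0.998 for LOC100244781 and 0.996 for LOC100244203 just outside. The mean V minus E change reached 0.999 for LOC100265073 and 0.987 for LOC104881928 inside and 1.04 for LOC100253828 and LOC100256318 outside. At the lower limit it was -0.988 for LOC100855161 and -0.908 for LOC100251546 inside, and -1.26 for LOC100258038 and -1.33 for LOC100251581 outside. The smallest of these margins were far below the spread between replicates.

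Most of the 117 genes carry no name. RefSeq listed 108 of them, all protein coding, 3 with a symbol of their own (CWINV, MLO7, HYD2) and 2 with a synonym only. The table gives no gene descriptions, so seed, skin and phloem markers could not be looked up and the flesh label was not checked by marker genes. In such bulk samples a change in the share of a cell type and a change in transcript per cell cannot be told apart.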

How the data were processed

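RNA-seq of Chardonnay flesh was analysed from the table of TPM that the authors deposited, with 2 decimals. Per the labels and the study's methods, reads were aligned with HISAT2 and counted with featureCounts; the methods point to an Ensembl Plants release of the V. vinifera reference, while the table is keyed by NCBI gene ids; tool versions and the name of the build are not given in the sources used here. TPM keeps no sequencing depth, so the depth and counting precision of each library are unknown. Samples were grouped by the labels into 18 groups, and no column was left unmapped. Each library was divided by its median-of-ratios factor from the 16546 genes above 0 in all 54 libraries (0.6445 to 1.4532), and log2(rescaled TPM + 1) was used, with a pseudocount of 1. Genes at 0 everywhere were dropped, leaving 24648. Group means of all 18 groups were fitted with limma 3.58.1 (R 4.3.3, trend); calls needed a Benjamini-Hochberg adjusted p under 0.05 and an absolute log2 change above 1. The code was tested on simulated data. The p-values measure the spread between replicates pooled over all 18 groups, V-XLS included, and not that of the 3 HSB replicates alone. The labels call the replicates biological. The genes, lists and tests were chosen with earlier results of these data known. The text names the 12 genes with the largest mean rise among those at 10 or more at maturity, the 8 most abundant, the 3 highest and 3 lowest changes in HSB among genes at 10 or more at maturity, genes at the limits and those with a symbol; others were named after their values were seen. Lists that needed gene descriptions or sequences (30 pathway and marker lists, of which only sugar transport held any of the genes, LOC100243643, and promoter motifs) were not used. RefSeq names come from assembly ASM3070453v1. Alternatives were other scalings, a pseudocount of 0.1, a filter, a replicate block, HSB libraries alone and each library left out.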

Additional observations from a re-analysis of the deposited data

Results flagged for a closer look

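In 10 of the 117 genes every M-HSB library lay below every V-HSB library, while in at least 3 of the 5 zones that chose them every M library lay above every V library. The difference between zones was not tested, because the rule used the other zones. The change from V to M in HSB on the log2 scale was -4.50 for LOC100242355, -2.30 for LOC100258190, -1.80 for LOC100254248, -1.68 for LOC100262403, -1.47 for LOC100255639 and -1.29 for ID 100246308, all called lower with limma. It was -0.96 for LOC100261795, -0.79 for LOC100264878, -0.70 for LOC104881753 and -0.55 for LOC100265092, which were within the limit of 1. Of the 10, LOC100255639, LOC100258190 and LOC104881753 had every M library above every V library in all 5 other zones. Over all genes tested, every M library lay below every V library in HSB for 35.9%.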

How the results depend on the processing

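The number of genes that met the rule depended on the scale: 195 with TPM as deposited (all 117 kept), 311 with a pseudocount of 0.1 (74 shared), 92 after quantile normalization and 116 after the filter. It was 27 with at least 4 zones, 113 without zone XLS, 222 with V-XLS replicate 2 alone (an alternative chosen after seeing the data, as was the fit without the V-XLS group), and 100 to 139 when each library was left out in turn. The HSB counts moved less, to 68 to 89 genes called higher from V to M and 80 to 99 from E to M over all alternatives but the left-out libraries, which gave 76 to 82 and 89 to 93. The counts over all 24648 genes moved as well. Called higher from V to M were 1039 with TPM as deposited and 2955 with a pseudocount of 0.1, against 2091 in the main fit. From E to M they were 1885 and 4499, against 3374. For E to V, 51 genes were called with a pseudocount of 0.1, and 18 to 33 when each library was left out, 18 without V-HSB replicate 3. TPM as deposited shifted the median of all genes in HSB by -0.23 from V to M. Relative to 0, the V to M change in HSB turned sign with TPM as deposited for LOC100255616 (-0.36), LOC100263585 (-0.27) and HYD2 (-0.34), after quantile normalization for LOC100255616 (-0.19) and LOC100263585 (-0.12), and without V-HSB replicate 1 for HYD2, whose change ran from -0.081 to 0.255 with single libraries left out; none of these was called. Of 16 alternatives each, the call of LOC100260301 was lost in 12, including every left-out HSB library, that of LOC100247714 in 4, of LOC100265435 in 2, of LOC109121661 in 1 and of ID 100853641 in 1. Over 45 named genes and 720 fits, 680 kept direction and call. Replicate numbers did not pair the samples: correlations of deviations between same-numbered libraries had a median of 0.00 over 54 pairs and exceeded 0.1 in 4. With the replicate block 81, 26 and 93 genes were called higher for V to M, E to V and E to M. Depth is unknown, so the precision of low TPM cannot be given.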
